A study of Mus musculus with 36 samples.

Results

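The 52 receptor genes described here encode mouse receptors for monoamines, acetylcholine, opioid peptides, cannabinoids and adenosine. They were taken by name, as 52 of the 21887 protein-coding genes on the assembled mouse chromosomes. The set holds 5 dopamine, 13 serotonin, 8 adrenergic and 3 histamine receptors, 5 muscarinic receptors, 9 nicotinic receptor subunits, 4 opioid-type receptors, 1 cannabinoid receptor and 4 adenosine receptors. For each gene, the bases lying inside peaks were counted in every list, within 2 kb of either gene end and in the gene body between those windows. The choice rests on gene names and uses no peak or score, but it was made with earlier results of these data known.

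Chromatin immunoprecipitation sequencing (ChIP-seq) was done on dorsal hippocampus of male mice of 8 weeks, for histone H3 acetylated at lysine 9 (H3K9ac) or at lysine 27 (H3K27ac). An AAV2/9 vector expressing a hairpin RNA that targets Acss2 (U6.shACSS2.CMV.EGFP), or a control vector, was injected into the dorsal hippocampus, and mice received ethanol (EtOH) into the peritoneum or no treatment. The groups are named KD EtOH (hairpin, EtOH at 2.0 g/kg as a 20% solution), KD untreated (hairpin, no EtOH), control EtOH (control vector, the same EtOH dose) and control untreated (control vector, no EtOH). Each had 3 ChIP libraries per mark, and the authors deposited 1 peak list for each group and mark, 8 lists in all.

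All 4 groups had brain surgery and a viral vector, and none was left without either. The labels do not state what share of cells took up a vector, and a peak list does not measure whether Acss2 itself was knocked down. Tissue came from whole dorsal hippocampus, so fewer cells of a type and less acetylation per cell cannot be told apart. With 1 list per group there is no replicate error, no test and no p-value for any difference below, and no list comes with its number of reads. Peaks numbered 31042 to 42120 in the H3K9ac lists, fewest in control EtOH and most in KD EtOH, and 86110 to 119317 in the H3K27ac lists, fewest and most in the same groups. Both KD lists of H3K27ac held more peaks than both control lists (101690 in KD untreated, 89935 in control untreated). The share of all genes with that order was not counted.

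Both marks are laid down by acetyltransferases from acetyl-CoA, which the enzyme ACSS2 makes from acetate, a product of ethanol breakdown. H3K9ac sits mainly at active promoters, and H3K27ac at active promoters and enhancers. The receptors themselves fall into ion channels opened directly by acetylcholine or serotonin, and receptors that act through G proteins: Gs raises cyclic AMP, Gi/o lowers it, and Gq releases calcium. In the hippocampus they carry the neuromodulatory input that sets excitability and memory formation, and most of their transmitters are made by neurons whose cell bodies lie elsewhere in the brain.

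Promoter sequences were available for 40 of the 52 genes, from RefSeq on GRCm38.p6, and 5 are printed because they span what the lists showed. Adora1 had the most H3K27ac-covered bases at its ends and Adrb1 the most H3K9ac-covered ones, Drd5 has a CpG-dense start with H3K9ac in part of the lists, and Drd2 and Adora3 had no peak in any list. Each run is the 250 bases before an annotated start, read 5′ to 3′ on the gene's strand, with CpG pairs in capitals.
Adora1: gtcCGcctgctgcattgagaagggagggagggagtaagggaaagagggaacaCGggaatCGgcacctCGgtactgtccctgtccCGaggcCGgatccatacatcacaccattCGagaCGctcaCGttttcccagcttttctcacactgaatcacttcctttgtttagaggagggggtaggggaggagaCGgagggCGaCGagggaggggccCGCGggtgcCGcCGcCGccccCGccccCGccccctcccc
Adrb1: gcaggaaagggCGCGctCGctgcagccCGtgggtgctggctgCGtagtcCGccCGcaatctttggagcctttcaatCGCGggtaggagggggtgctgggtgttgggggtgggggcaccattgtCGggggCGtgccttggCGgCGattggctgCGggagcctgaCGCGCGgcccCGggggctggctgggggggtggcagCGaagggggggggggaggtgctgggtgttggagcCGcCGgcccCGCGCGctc
Drd5: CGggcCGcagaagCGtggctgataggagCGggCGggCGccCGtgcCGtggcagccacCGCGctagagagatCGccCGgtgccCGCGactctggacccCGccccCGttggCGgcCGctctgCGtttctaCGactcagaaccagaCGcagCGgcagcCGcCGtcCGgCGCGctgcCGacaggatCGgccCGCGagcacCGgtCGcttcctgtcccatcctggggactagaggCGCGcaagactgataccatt
Drd2: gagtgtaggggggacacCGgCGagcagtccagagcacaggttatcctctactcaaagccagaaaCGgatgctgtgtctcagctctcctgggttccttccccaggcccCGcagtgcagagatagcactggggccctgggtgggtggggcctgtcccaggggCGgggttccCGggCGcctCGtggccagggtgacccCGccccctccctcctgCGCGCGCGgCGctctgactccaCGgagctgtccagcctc
Adora3: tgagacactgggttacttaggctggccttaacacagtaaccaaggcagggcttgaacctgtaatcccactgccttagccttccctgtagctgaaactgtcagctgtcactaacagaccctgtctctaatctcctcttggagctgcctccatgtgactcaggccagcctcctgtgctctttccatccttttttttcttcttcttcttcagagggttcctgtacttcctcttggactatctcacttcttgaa

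The Adora1 run lies at chr1:134235458-134235707 on the minus strand, holds 19 CpG pairs and overlapped a peak in all 8 lists. Adrb1, at chr19:56721867-56722116 on the plus strand, had 24 CpG pairs and a peak in all 8 lists as well. Drd5, at chr5:38319259-38319508 on the plus strand, was the most CpG-dense of the 5 with 35 pairs, and 7 lists had a peak over it. Drd2, at chr9:49340153-49340402 on the plus strand, held 15 CpG pairs and no list had a peak there. Adora3, at chr3:105904171-105904420 on the plus strand, held no CpG pair and no peak.

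Most receptor genes were acetylated somewhere in dorsal hippocampus. A peak at the ends or in the body was present in at least 1 list for 43 of the 52 genes and in all 8 lists for 25. At the gene ends alone, 22 receptors (42.3%) had a peak in all 8 lists, against 56.0% of all genes. A further 18 (34.6%) had an end peak in 1 to 7 lists, against 12.8% of all genes, so the receptors were more often covered in part of the lists. Another protein-coding gene lies near the end windows of 19 receptors, and 16 of the 22 receptors covered in all lists have no such neighbour. The 9 receptors with no peak in any list (17.3%, against 27.2% of all genes) were Drd2, Htr2b, Htr2c, Htr3a, Chrna2, Chrna6, Chrnb3, Oprk1 and Adora3. No such share was tested.

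By list, H3K9ac end peaks were present at 32 receptors in KD EtOH (61.3% of all genes had one), 28 in KD untreated (60.0%), 25 in control EtOH (57.5%) and 34 in control untreated (60.8%). For H3K27ac the numbers were 38 in KD EtOH (66.8% of all genes), 35 in KD untreated (65.4%), 37 in control EtOH (64.1%) and 38 in control untreated (63.9%). As shares of the 52 receptors, H3K9ac reached 61.5% in KD EtOH, 53.8% in KD untreated, 48.1% in control EtOH and 65.4% in control untreated. H3K27ac reached 73.1% in KD EtOH, 67.3% in KD untreated, 71.2% in control EtOH and 73.1% in control untreated. These lie near the shares of all genes, and H3K9ac in control EtOH was the furthest below. Counting gene bodies too, H3K9ac was at 36 receptors in KD EtOH (65.4% of all genes), 31 in KD untreated (64.1%), 28 in control EtOH (61.7%) and 38 in control untreated (64.8%). H3K27ac was then at 42 in KD EtOH (71.0% of all genes), 40 in KD untreated (69.7%), 42 in control EtOH (68.4%) and 43 in control untreated (68.2%).

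Where a receptor was covered, fewer bases were under peaks at its ends and its best peak ranked lower than at other genes, by the medians. The median covered length at the ends for H3K9ac was 819 bp over covered receptors in KD EtOH (1391 bp over all covered genes), 745.5 bp in KD untreated (1328 bp), 586 bp in control EtOH (1096 bp) and 650.5 bp in control untreated (1353 bp). For H3K27ac it was 1034 bp over receptors in KD EtOH (1533 bp over all covered genes), 933 bp in KD untreated (1428 bp), 866 bp in control EtOH (1320 bp) and 737 bp in control untreated (1359 bp). The receptors' median was thus lower in all 8 lists. The score of each peak, which behaves like a −log10 q-value though no header names it, was ranked within its own list. The median receptor's best H3K9ac end peak stood at percentile 58.9 in KD EtOH (83.6 for all covered genes), 53.4 in KD untreated (82.4), 41.9 in control EtOH (79.1) and 51.9 in control untreated (82.4). For H3K27ac it stood at 85.8 in KD EtOH (93.7 for all covered genes), 78.9 in KD untreated (92.7), 76.7 in control EtOH (91.7) and 78.2 in control untreated (92.0). The difference from other genes was therefore wider for H3K9ac than for H3K27ac in each group.

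**Figure D1:**
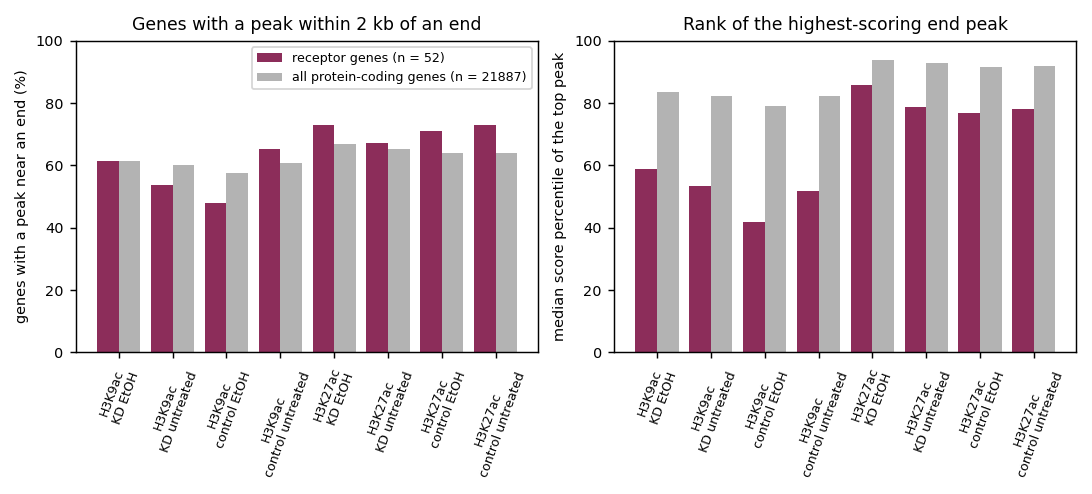
Left, the share of genes with a peak within 2 kb of an end (percent), and right, the median percentile of the best end peak's score within its list over covered genes, for the 52 receptors (dark) and all 21887 protein-coding genes (grey) in each list. The shares are similar in both sets, while the receptors' H3K9ac percentiles run between 41.9 and 58.9 and those of all genes between 79.1 and 83.6.

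Peaks over annotated starts were then set against the CpG content of the promoters. Of the 40 receptors with an annotated start, 23 (57.5%) had a CpG-rich window, defined as 250 bases before to 50 after a start with an observed over expected CpG ratio of at least 0.6 and at least 50% G and C, against 48.3% of 17492 genes. H3K27ac peaks lay over a start in all 4 lists at 20 of these 23 receptors (87.0%, against 88.4% of all CpG-rich genes). H3K9ac peaks did so at 9 (39.1%, against 75.7%): Htr6, Adra2a, Adrb1, Chrm4, Chrna4, Chrna7, Cnr1, Adora1 and Hrh1. Among the 17 receptors without such a window, H3K9ac covered a start in all 4 lists at 2 (11.8%, against 15.2%), Htr5a and Chrnb2, and H3K27ac at 5 (29.4%, against 22.1%). Drd2 was the 1 CpG-rich receptor with no peak over its start.

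Motif letters were searched on both strands of the same windows. The cyclic AMP response element TGACGTCA was present in 0 of 40 receptors, against 2.54% of all genes, and its core TGACG, which also lies inside the full element, in 5 (12.5%, against 26.2%): Htr7, Adra2a, Adrb1, Chrna5 and Chrnb2. The GC box GGGCGG was present in 27 receptors (67.5%, against 49.2% of all genes), among them Drd2, Drd5, Adrb1 and Adora1. A match is a description of the letters only.

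**Figure D2:**
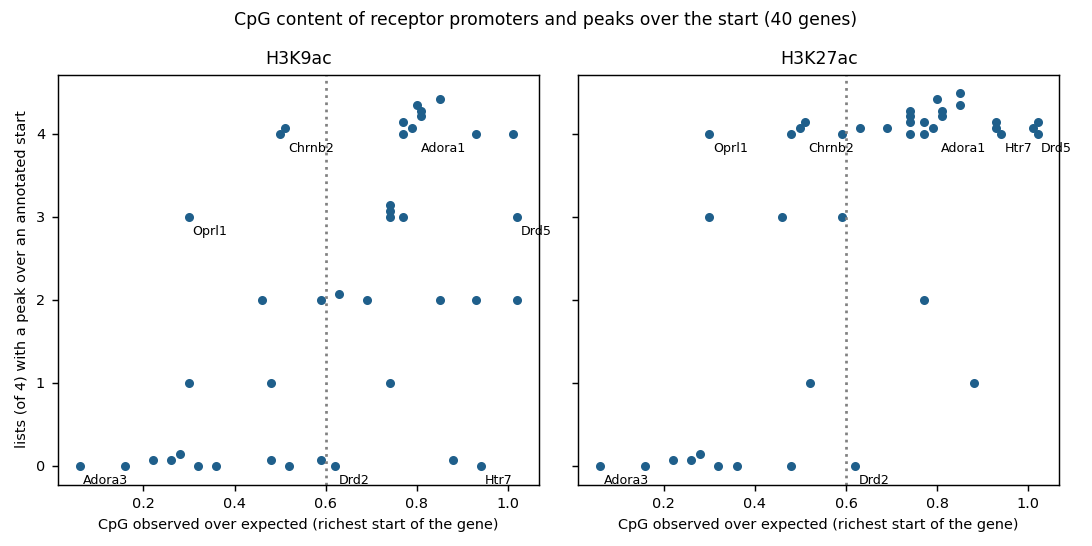
Number of lists (of 4) with a peak over an annotated start, by observed over expected CpG ratio of the richest start window, for the 40 receptors with annotated starts; H3K9ac left, H3K27ac right, with points of equal value offset upwards and a dotted line at 0.6. Right of the line nearly every receptor is in all 4 H3K27ac lists, while H3K9ac spreads from 0 to 4 lists, with Drd2 at 0 for both marks.

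Dopamine receptors were covered at their ends by both marks in all lists at 1 of 5 genes, Drd1. It encodes the main receptor of the Gs-coupled dopamine branch (chr13:54051183-54055658). Drd1 had H3K9ac over 419 bp in KD EtOH, 816 bp in KD untreated, 200 bp in control EtOH and 575 bp in control untreated. H3K27ac at Drd1 covered 934 bp in KD EtOH, 1174 bp in KD untreated, 965 bp in control EtOH and 643 bp in control untreated. H3K9ac was lowest in control EtOH, and both marks were highest in KD untreated. Drd5, the other Gs-coupled member and a receptor known from hippocampal neurons, lies at chr5:38319509-38322523. At Drd5, H3K9ac covered 1027 bp in KD EtOH, 196 bp in KD untreated, 0 bp in control EtOH and 852 bp in control untreated. H3K27ac there spanned 1480 bp in KD EtOH, 822 bp in KD untreated, 866 bp in control EtOH and 912 bp in control untreated. H3K9ac was thus absent from 1 list and short in another at a gene whose H3K27ac was present throughout.

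The Gi/o-coupled dopamine receptors were weaker. Drd4, which binds dopamine in forebrain and retina (chr7:141291974-141296464, with Deaf1 near its end window), had H3K9ac over 0 bp in KD EtOH, 0 bp in KD untreated, 263 bp in control EtOH and 145 bp in control untreated, and it was the only receptor with more H3K9ac in control EtOH than in control untreated. Its H3K27ac extended over 629 bp in KD EtOH, 585 bp in KD untreated, 329 bp in control EtOH and 570 bp in control untreated. Drd3 had no end peak, but in the gene body (chr16:43754015-43825982) H3K9ac covered 409 bp in KD EtOH, 307 bp in KD untreated, 172 bp in control EtOH and 329 bp in control untreated. The body of Drd3 held H3K27ac over 1254 bp in KD EtOH, 1373 bp in KD untreated, 383 bp in control EtOH and 494 bp in control untreated. A region at chr16:43801724-43802191, away from the annotated start of Drd3, carried both marks in all 8 lists, and KD lists had more H3K27ac bases than control lists. Drd2, the receptor blocked by antipsychotic drugs, had no peak.

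Serotonin receptors made up the largest family, and 5 of the 13 had end peaks in all 8 lists: Htr1a, Htr2a, Htr4, Htr5a and Htr6. Htr1a, an inhibitory Gi/o-coupled receptor of pyramidal cells and of serotonin neurons themselves, lies at chr13:105443693-105448133. H3K9ac over Htr1a came to 1318 bp in KD EtOH, 642 bp in KD untreated, 357 bp in control EtOH and 1193 bp in control untreated. For H3K27ac the Htr1a ends had 1967 bp in KD EtOH, 1247 bp in KD untreated, 1261 bp in control EtOH and 1613 bp in control untreated. H3K9ac was high in KD EtOH and control untreated and low in the other 2 lists, and H3K27ac was highest in KD EtOH.

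Htr2a, the Gq-coupled receptor through which classical psychedelics act, lies at chr14:74640874-74706859. Htr2a carried H3K9ac over 976 bp in KD EtOH, 671 bp in KD untreated, 139 bp in control EtOH and 420 bp in control untreated. The H3K27ac length at Htr2a was 934 bp in KD EtOH, 537 bp in KD untreated, 201 bp in control EtOH and 246 bp in control untreated. Both marks were longest in KD EtOH, and both KD lists exceeded both control lists for each mark. Htr5a, a Gi/o-coupled receptor (chr5:27841716-27855086), showed H3K9ac over 887 bp in KD EtOH, 675 bp in KD untreated, 420 bp in control EtOH and 582 bp in control untreated. Its H3K27ac reached 1281 bp in KD EtOH, 933 bp in KD untreated, 1177 bp in control EtOH and 1034 bp in control untreated. KD EtOH was highest for both marks, and control EtOH was lowest for H3K9ac.

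Htr4 and Htr6 are both Gs-coupled. Htr4 lies at chr18:62323546-62503027, beside Fbxo38, and its H3K9ac covered 1177 bp in KD EtOH, 935 bp in KD untreated, 374 bp in control EtOH and 1086 bp in control untreated. Its H3K27ac occupied 1883 bp in KD EtOH, 1999 bp in KD untreated, 1421 bp in control EtOH and 1380 bp in control untreated. Htr6, beside Tmco4 at chr4:139059706-139075570, had H3K9ac over 1353 bp in KD EtOH, 1071 bp in KD untreated, 656 bp in control EtOH and 1364 bp in control untreated. In both genes H3K9ac was lowest in control EtOH. The Htr6 ends held H3K27ac over 1976 bp in KD EtOH, 1648 bp in KD untreated, 1799 bp in control EtOH and 1702 bp in control untreated, a narrow range.

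Among the other serotonin receptors, Htr1b, Htr1d and Htr1f, all Gi/o-coupled, had H3K27ac in all 4 lists, between 370 and 893 bp, and H3K9ac in 2 or 3 lists, never in control EtOH. Htr1b (chr9:81628291-81633832), which acts on axon terminals, had H3K27ac over 370 bp in KD EtOH, 658 bp in KD untreated, 893 bp in control EtOH and 522 bp in control untreated. Its H3K9ac covered 391 bp in KD EtOH, 269 bp in KD untreated, 0 bp in control EtOH and 394 bp in control untreated. The marks went opposite ways between the control lists, with more H3K27ac and no H3K9ac in control EtOH. Htr5b, a Gi/o-coupled receptor in the mouse with Ccdc93 near its end (chr1:121509758-121529312), had no H3K9ac, and its H3K27ac covered 782 bp in KD EtOH, 993 bp in KD untreated, 0 bp in control EtOH and 194 bp in control untreated. Htr7, Gs-coupled, was also without H3K9ac and had H3K27ac over 632 bp in KD EtOH, 613 bp in KD untreated, 275 bp in control EtOH and 224 bp in control untreated. For Htr5b and Htr7 both KD lists exceeded both control lists, as they did in total H3K27ac peaks. Htr2b and Htr2c, which are Gq-coupled, and Htr3a, a subunit of the serotonin-gated channel, had no peak.

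Adrenergic receptors were covered at the ends in all lists at 5 of 8 genes, and 2 of them, Adrb1 and Adra1d, headed the whole set for H3K9ac. Adrb1, the Gs-coupled beta receptor of heart and forebrain, lies at chr19:56722117-56725150 with no other protein-coding gene near its ends. The Adrb1 windows carried H3K9ac over 3395 bp in KD EtOH, 3189 bp in KD untreated, 2066 bp in control EtOH and 2519 bp in control untreated. H3K27ac over Adrb1 measured 3570 bp in KD EtOH, 3254 bp in KD untreated, 3099 bp in control EtOH and 3429 bp in control untreated. Averaged over the 4 lists, this is 2792 bp of H3K9ac and 3338 bp of H3K27ac. Adra1d, a Gq-coupled receptor, lies at chr2:131545357-131562497. Adra1d had H3K9ac over 3059 bp in KD EtOH, 2718 bp in KD untreated, 1078 bp in control EtOH and 3416 bp in control untreated. The H3K27ac extent was 4301 bp in KD EtOH, 3963 bp in KD untreated, 3251 bp in control EtOH and 3476 bp in control untreated. Adra1d had the largest H3K9ac difference of any receptor, with 1078 bp in control EtOH and 3416 bp in control untreated.

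The Gi/o-coupled alpha receptors Adra2a and Adra2c act as brakes on noradrenaline release. Adra2a (chr19:54045259-54048982) had H3K9ac over 1435 bp in KD EtOH, 1313 bp in KD untreated, 1011 bp in control EtOH and 1579 bp in control untreated. Its H3K27ac covered 2275 bp in KD EtOH, 2142 bp in KD untreated, 1961 bp in control EtOH and 1862 bp in control untreated. Control EtOH was the lowest H3K9ac list. At Adra2c (chr5:35278566-35281763), H3K9ac covered 1313 bp in KD EtOH, 901 bp in KD untreated, 672 bp in control EtOH and 1120 bp in control untreated. For H3K27ac, Adra2c had 2471 bp in KD EtOH, 1820 bp in KD untreated, 1376 bp in control EtOH and 1435 bp in control untreated. KD EtOH was the highest list for both marks, although no list had a peak over the annotated start itself. Adra1a (chr14:66635251-66771240), a Gq-coupled receptor, had H3K9ac over 680 bp in KD EtOH, 982 bp in KD untreated, 436 bp in control EtOH and 611 bp in control untreated, and its H3K27ac came to 1050 bp in KD EtOH, 789 bp in KD untreated, 816 bp in control EtOH and 877 bp in control untreated.

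The remaining adrenergic genes carried little at their outermost ends. Adra2b (chr2:127363179-127367221) had no H3K9ac, and H3K27ac over 0 bp in KD EtOH, 0 bp in KD untreated, 138 bp in control EtOH and 228 bp in control untreated, so only control lists held a peak. Adra1b (chr11:43774605-43901250), Gq-coupled, had no end peak by its outermost coordinates, and in the body H3K27ac covered 447 bp in KD EtOH, 349 bp in KD untreated, 497 bp in control EtOH and 302 bp in control untreated. H3K9ac in the Adra1b body was present in control untreated, over 398 bp, and in no other list. A region at chr11:43836087-43836620, near an annotated start of Adra1b inside the gene, was in all 4 H3K27ac lists. All 4 had a peak over a start window, so H3K27ac was at an Adra1b promoter throughout. Adrb3, known as the beta receptor of adipose tissue, had H3K9ac in 2 lists and H3K27ac in 3, with at most 234 bp, and Got1l1 lies near its ends.

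All 5 muscarinic receptor genes had an end peak in at least 1 list, and Chrm1, Chrm3 and Chrm4 had one in all 8. Chrm1, the Gq-coupled receptor that excites hippocampal pyramidal cells, lies at chr19:8664005-8683606. H3K9ac spanned 2784 bp in KD EtOH, 2447 bp in KD untreated, 1639 bp in control EtOH and 2441 bp in control untreated at Chrm1. Its H3K27ac took up 4636 bp in KD EtOH, 4761 bp in KD untreated, 4034 bp in control EtOH and 4581 bp in control untreated. Only Adora1 had a greater mean H3K27ac length among the receptors, and control EtOH was its lowest list for each mark. Chrm3, also Gq-coupled (chr13:9875486-10361062), had H3K9ac over 1429 bp in KD EtOH, 901 bp in KD untreated, 586 bp in control EtOH and 953 bp in control untreated. Its H3K27ac came to 1892 bp in KD EtOH, 1426 bp in KD untreated, 871 bp in control EtOH and 1948 bp in control untreated. Chrm3 was lowest in control EtOH for both marks. Chrm4, a Gi/o-coupled receptor of terminals and principal cells, lies at chr2:91922189-91929835 with Ambra1, Mdk and Dgkz near its ends, so part of its peaks may belong to them. H3K9ac around Chrm4 extended over 2479 bp in KD EtOH, 1484 bp in KD untreated, 1450 bp in control EtOH and 2255 bp in control untreated. H3K27ac around Chrm4 extended over 4099 bp in KD EtOH, 3992 bp in KD untreated, 3135 bp in control EtOH and 3014 bp in control untreated. H3K9ac was high in KD EtOH and control untreated, and H3K27ac was higher in both KD lists than in either control list.

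Chrm2, the other Gi/o-coupled muscarinic receptor, had H3K9ac in 3 of 4 lists (462 to 636 bp, none in control EtOH). H3K27ac at Chrm2 (chr6:36387991-36528638) covered 539 bp in KD EtOH, 835 bp in KD untreated, 478 bp in control EtOH and 191 bp in control untreated. Chrm5, Gq-coupled and known from dopamine neurons, had end peaks in 3 lists and a strong region in its body. H3K9ac in the Chrm5 body covered 1781 bp in KD EtOH, 1825 bp in KD untreated, 1089 bp in control EtOH and 1717 bp in control untreated. This region, chr2:112492416-112493978, was in all 8 lists and lies at an annotated start of Aven, a gene that overlaps Chrm5, so it may belong to Aven and not to the receptor.

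Nicotinic subunits were the least covered of the larger families. Of 9 genes, Chrna7 and Chrnb2 had end peaks in all 8 lists, 4 had them in some and 3 had no peak. Chrna7 forms channels on its own and is abundant in hippocampal interneurons (chr7:63098692-63212526). Chrna7 had H3K9ac over 974 bp in KD EtOH, 823 bp in KD untreated, 748 bp in control EtOH and 767 bp in control untreated. H3K27ac at Chrna7 covered 1180 bp in KD EtOH, 803 bp in KD untreated, 674 bp in control EtOH and 954 bp in control untreated. Chrnb2, the beta subunit of the high-affinity nicotine receptor (chr3:89753448-89764632, beside Adar), had H3K9ac over 751 bp in KD EtOH, 535 bp in KD untreated, 594 bp in control EtOH and 801 bp in control untreated. The Chrnb2 ends held H3K27ac over 987 bp in KD EtOH, 682 bp in KD untreated, 611 bp in control EtOH and 860 bp in control untreated. No H3K9ac contrast moved either of them by 1.5-fold, and KD EtOH was their longest H3K27ac list.

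Chrna4, the alpha partner of Chrnb2, shows what the outermost gene coordinates can miss (chr2:181022311-181043579). Its end windows held 228 bp of H3K9ac in control untreated and nothing in the other 7 lists. Its annotated start lies inside those coordinates, where H3K9ac covered 997 bp in KD EtOH, 435 bp in KD untreated, 587 bp in control EtOH and 721 bp in control untreated. H3K27ac in the same stretch covered 3175 bp in KD EtOH, 2974 bp in KD untreated, 1963 bp in control EtOH and 1810 bp in control untreated. A region at chr2:181038804-181039896, over that start, was in all 8 lists, so the gene was acetylated throughout. Chrna3, Chrna5 and Chrnb4 form a cluster on chromosome 9 and encode subunits of ganglionic and habenular receptors. The window at the start of Chrna3 (chr9:55010117-55026562) overlaps the one at the 3′ end of Chrnb4. The same peaks therefore count for both genes, with 196 bp of H3K9ac in KD EtOH and none in the other lists. H3K27ac lay over the start of Chrna3 in 3 lists and over that of Chrnb4 in 0, so Chrnb4 is not a separate observation. H3K27ac at this pair covered 226 bp in KD EtOH, 0 bp in KD untreated, 155 bp in control EtOH and 481 bp in control untreated, and at Chrna5 it covered 423 bp in KD EtOH, 312 bp in KD untreated, 216 bp in control EtOH and 346 bp in control untreated. The adjacent genes Chrna6 and Chrnb3, known from dopamine neurons, and Chrna2 had no peak.

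Opioid-type receptors, all Gi/o-coupled, had no gene with end peaks in all 8 lists. Oprl1, the nociceptin receptor (chr2:181715000-181720985), had H3K9ac over 480 bp in KD EtOH, 0 bp in KD untreated, 203 bp in control EtOH and 472 bp in control untreated. H3K27ac at Oprl1 measured 2056 bp in KD EtOH, 2042 bp in KD untreated, 952 bp in control EtOH and 739 bp in control untreated. Both KD lists exceeded both control lists for H3K27ac. Oprd1, the delta receptor (chr4:132110188-132144486), had H3K9ac over 687 bp in KD EtOH, 0 bp in KD untreated, 0 bp in control EtOH and 294 bp in control untreated. Its H3K27ac was 702 bp in KD EtOH, 718 bp in KD untreated, 371 bp in control EtOH and 669 bp in control untreated. No opioid-type receptor had an H3K9ac end peak in KD untreated. Oprm1, the mu receptor for morphine (chr10:6758593-7038209), had body peaks and no end peak. H3K9ac in the Oprm1 body covered 434 bp in KD EtOH, 0 bp in KD untreated, 0 bp in control EtOH and 356 bp in control untreated. H3K27ac there extended over 2116 bp in KD EtOH, 1473 bp in KD untreated, 723 bp in control EtOH and 1348 bp in control untreated. A region held by all 4 H3K27ac lists, chr10:6979279-6980549, lies near an annotated start of Ipcef1, which overlaps Oprm1, and no list had a peak over an annotated start of Oprm1. That region also held all the H3K9ac of the Oprm1 body, in 2 lists. These bases may therefore belong to Ipcef1 and not to the receptor. The kappa receptor gene Oprk1 had no peak.

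Cnr1, the Gi/o-coupled presynaptic receptor for endocannabinoids and for the active compound of cannabis, varied little between lists (chr4:33923171-33948831). H3K9ac at Cnr1 covered 1237 bp in KD EtOH, 1276 bp in KD untreated, 995 bp in control EtOH and 1287 bp in control untreated. Its H3K27ac was 1641 bp in KD EtOH, 1673 bp in KD untreated, 1700 bp in control EtOH and 1759 bp in control untreated. No contrast reached 1.5-fold for either mark.

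Adenosine receptors ranged from Adora1, which had the most H3K27ac-covered bases at its ends of all 52 receptors, to Adora3, which had no peak. Adora1, the Gi/o-coupled receptor by which adenosine dampens hippocampal transmission and a target of caffeine, lies at chr1:134199215-134235457, with Mybph near its end. At its ends, H3K9ac covered 2430 bp in KD EtOH, 2369 bp in KD untreated, 2205 bp in control EtOH and 2573 bp in control untreated. H3K27ac at the Adora1 ends covered 6873 bp in KD EtOH, 5865 bp in KD untreated, 4738 bp in control EtOH and 5596 bp in control untreated. The mean H3K27ac length at its ends, 5768 bp, stood at percentile 99.9 of all genes, and no contrast of either mark reached 1.5-fold. Its body also had the most covered bases of any receptor. H3K9ac in the body of Adora1 covered 2264 bp in KD EtOH, 2395 bp in KD untreated, 1195 bp in control EtOH and 1885 bp in control untreated. Body H3K27ac came to 13100 bp in KD EtOH, 10580 bp in KD untreated, 8970 bp in control EtOH and 10488 bp in control untreated. Control EtOH was the lowest list for both marks there as well.

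Adora2b, a Gs-coupled receptor of low adenosine affinity (chr11:62248984-62266452, beside Zswim7), had H3K9ac over 651 bp in KD EtOH, 659 bp in KD untreated, 586 bp in control EtOH and 1072 bp in control untreated. H3K27ac at Adora2b covered 1334 bp in KD EtOH, 1075 bp in KD untreated, 1024 bp in control EtOH and 830 bp in control untreated. The H3K9ac list of control untreated was the highest, and H3K27ac was lowest there. Adora2a, the Gs-coupled receptor known mostly from striatum and also a caffeine target (chr10:75316877-75334792), had H3K9ac over 453 bp in KD EtOH, 0 bp in KD untreated, 0 bp in control EtOH and 509 bp in control untreated. Its H3K27ac covered 1018 bp in KD EtOH, 585 bp in KD untreated, 611 bp in control EtOH and 297 bp in control untreated. H3K9ac was missing in KD untreated and control EtOH, while H3K27ac was present in every list. Adora3, Gi/o-coupled, had no peak.

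All 3 histamine receptors were covered at their ends in all 8 lists, at modest lengths. Hrh1, Gq-coupled and the target of sedating antihistamines (chr6:114397936-114483298), had H3K9ac over 402 bp in KD EtOH, 195 bp in KD untreated, 388 bp in control EtOH and 690 bp in control untreated. Its H3K27ac measured 629 bp in KD EtOH, 719 bp in KD untreated, 484 bp in control EtOH and 366 bp in control untreated. Control untreated was the longest list for H3K9ac and the shortest for H3K27ac. Hrh2, Gs-coupled (chr13:54191970-54236182), had H3K9ac over 506 bp in KD EtOH, 336 bp in KD untreated, 231 bp in control EtOH and 357 bp in control untreated. H3K27ac at Hrh2 covered 813 bp in KD EtOH, 429 bp in KD untreated, 475 bp in control EtOH and 548 bp in control untreated, longest in KD EtOH. Hrh3, the Gi/o-coupled autoreceptor of histamine neurons (chr2:180099465-180104484), had H3K9ac over 702 bp in KD EtOH, 519 bp in KD untreated, 149 bp in control EtOH and 430 bp in control untreated. The H3K27ac length of Hrh3 was 1870 bp in KD EtOH, 1488 bp in KD untreated, 1071 bp in control EtOH and 735 bp in control untreated. For Hrh3 both KD lists exceeded both control lists with either mark, and control EtOH was the lowest H3K9ac list.

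By coupling, an end peak in all 8 lists was present at 6 of 10 Gs-coupled, 6 of 10 Gq-coupled and 8 of 22 Gi/o-coupled receptors and at 2 of 10 channel subunits, against 56.0% of all genes, so the Gs and Gq counts lay near that share. No peak at all was found at 0 of 10 Gs-coupled, 2 of 10 Gq-coupled and 3 of 22 Gi/o-coupled receptors and 4 of 10 channel subunits, against 27.2% of all genes. At the receptors H3K27ac reached further than H3K9ac. Both marks were at the ends of 32 receptors in KD EtOH, 27 in KD untreated, 25 in control EtOH and 33 in control untreated. H3K27ac stood alone at 6 receptors in KD EtOH, 8 in KD untreated, 12 in control EtOH and 5 in control untreated. Of the receptors with H3K27ac this is 15.8% in KD EtOH (8.92% of all such genes), 22.9% in KD untreated (8.9%), 32.4% in control EtOH (10.7%) and 13.2% in control untreated (6.17%). H3K9ac alone was limited to Adrb3 in KD untreated and Chrna4 in control untreated. The 12 receptors with H3K27ac alone in control EtOH were Drd5, Htr1b, Htr1d, Htr1f, Htr7, Adra2b, Adrb3, Chrm2, Chrna3, Chrnb4, Oprd1 and Adora2a. Of these, Htr7, Adra2b, Chrna3 and Chrnb4 had H3K27ac alone in control untreated too.

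With ethanol in the control vector, most receptors had less H3K9ac at their ends. Control EtOH held 17665 covered bases over the set and control untreated 32929. Of 34 receptors covered in either list, 24 (70.6%) had at least 1.5-fold fewer bases, against 30.1% of all covered genes, and 33 had fewer bases in control EtOH. Drd4 alone had at least 1.5-fold more, against 1.96% of all genes. The median log2 ratio over the receptors in both lists was −0.64, against −0.32 over all genes, a difference of −0.32. For 9 receptors the peak was in control untreated only. The largest decreases in covered bases were at Adra1d (1078 bp in control EtOH, 3416 bp in control untreated, log2 ratio −1.66), Drd5 (0 bp in control EtOH, 852 bp in control untreated) and Htr1a (357 bp in control EtOH, 1193 bp in control untreated, log2 ratio −1.74). They encode a Gq-, a Gs- and a Gi/o-coupled receptor.

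The control EtOH list was also the shortest H3K9ac list, and 2 settings addressed list size. When every H3K9ac list was cut to its 31042 best-scoring peaks, 19 of 32 covered receptors were lower and 3 higher, against 25.6% and 3.25% of all genes. The median log2 ratio was then −0.66, against −0.28 over all genes (−0.32 with full lists). Equal length thus left most of the difference over all genes in place. When bases were divided by each list's total at all gene ends, 17 of 34 were lower and 1 higher, against 15.5% and 4.94%, and the median log2 ratio was −0.28, against 0.04 over all genes. Receptors also have fewer covered bases than other genes. Split by mean H3K9ac length after the data were seen, 5 of 9 receptors with at least 1000 bp were lower (19.6% of all such genes) and 19 of 25 with less (50.4% of all such genes). The part that covered length and list size have in the difference was not tested further.

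In the knockdown the ethanol comparison ran mostly the other way. KD EtOH held 34938 H3K9ac bases over the set and KD untreated 27532. Of 34 receptors, 12 (35.3%) had at least 1.5-fold more, against 12.5% of all genes, and 4 had at least 1.5-fold fewer, against 4.89%. The median log2 ratio was 0.33, against 0.08 over all genes. The 12 were Drd5, Htr1a, Chrm3, Chrm4, Chrm5, Chrna3, Chrnb4, Oprd1, Oprl1, Adora2a, Hrh1 and Hrh2, and the 4 lower ones Drd1, Htr1d, Htr1f and Adrb3. The largest increases were at Chrm4 (2479 bp in KD EtOH, 1484 bp in KD untreated), Drd5 (1027 bp in KD EtOH, 196 bp in KD untreated, log2 ratio 2.39) and Oprd1 (687 bp in KD EtOH, 0 bp in KD untreated). Among receptors with a mean under 1000 bp, 11 of 25 were higher, against 29.1% of all such genes, and among longer ones 1 of 9, against 3.47%.

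**Figure D3:**
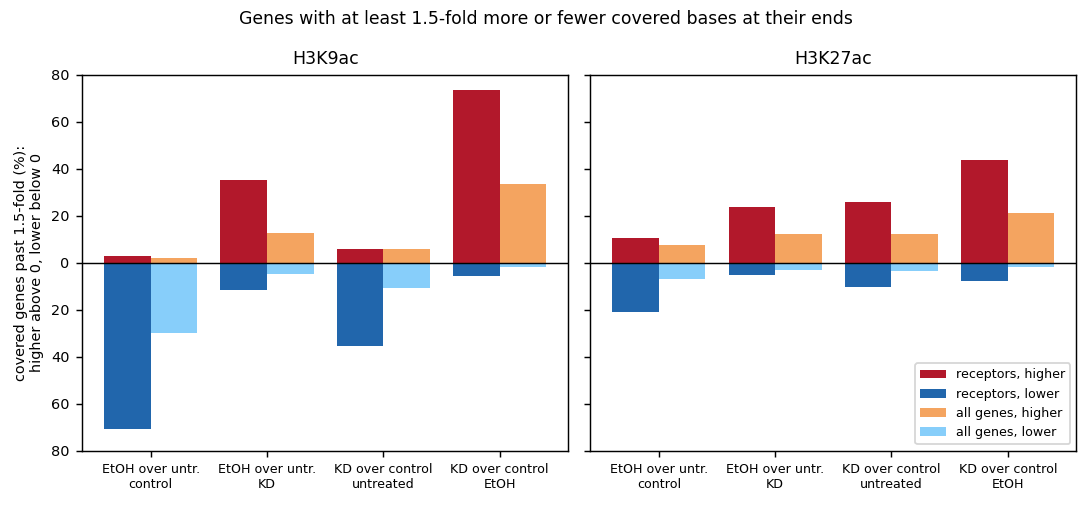
Share of covered genes (percent) with at least 1.5-fold more (above 0) or fewer (below 0) covered bases at their ends in each contrast, for the receptors (dark) and all protein-coding genes (light); H3K9ac left, H3K27ac right. The receptors' H3K9ac bars reach 70.6% lower for ethanol in the control vector and 73.5% higher for the knockdown with ethanol, both more than 2 times the bar of all genes.

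Thus 9 of the 37 receptors covered by H3K9ac (24.3%) had fewer bases with ethanol in the control vector and more with ethanol in the knockdown, against 6.18% of all covered genes. They were Drd5, Htr1a, Chrm3, Chrm4, Oprd1, Oprl1, Adora2a, Hrh1 and Hrh2, which span 6 families. None did the opposite (0.288% of all genes), and 4 had fewer bases in both. All of the 9 but Chrm4 had a mean H3K9ac length under 1000 bp. Of all genes under 1000 bp, 50.4% were lower with ethanol in the control vector, against 30.1% of all covered genes. In the knockdown, 29.1% of such genes were higher with ethanol, against 12.5%. The share with both changes was not computed at like covered length. The difference between the vectors was not tested, since each rests on 1 list per group. After division by list totals, Drd5, Htr1a, Oprd1, Oprl1 and Adora2a still met both criteria, and with lists of equal length 9 receptors did, with Chrm2 and Hrh3 in place of Chrm4 and Hrh1. For H3K27ac, Chrna3 and Chrnb4, which share their peaks, followed this pattern (2.17% of all genes), and Htr1b and Chrm2 had the opposite one (0.756%).

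**Figure D4:**
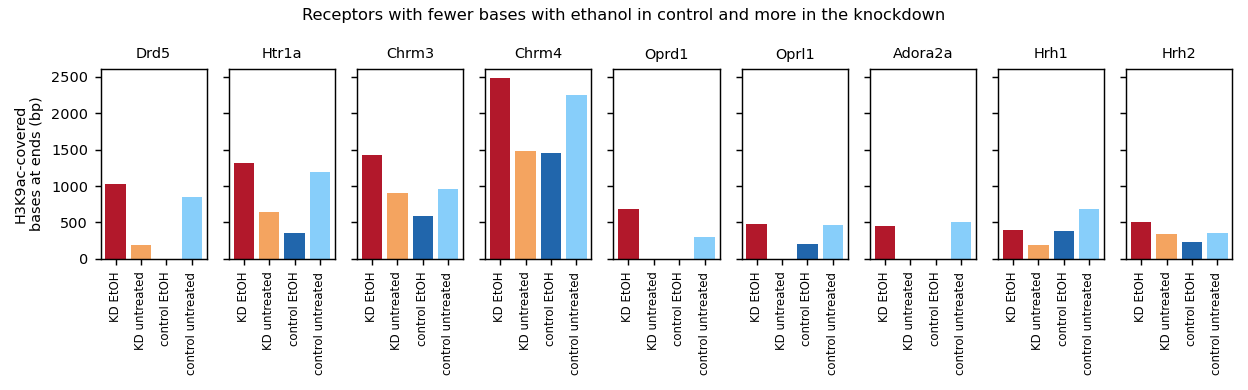
H3K9ac-covered bases within 2 kb of the gene ends (bp, bars from 0) of the 9 receptors with fewer bases with ethanol in the control vector and more in the knockdown, 1 panel per gene and 1 bar per list, with no replicate error. In each panel the KD EtOH bar exceeds the KD untreated bar and the control EtOH bar lies below the control untreated bar, by 126 bp at Hrh2 and up to 852 bp at Drd5.

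The knockdown comparisons use the same lists as the ethanol ones, so they share their chance values. With ethanol, 25 of 34 receptors (73.5%) had more H3K9ac in KD EtOH than in control EtOH by at least 1.5-fold, against 33.3% of all genes, and 2 had less, Drd4 and Chrna5 (1.88%). The median log2 ratio was 0.97, against 0.37 over all genes. With lists of equal length 20 of 31 were higher, against 26.5% of all genes, and after division by list totals 20 of 34, against 16.5%. Among receptors with a mean of at least 1000 bp 6 of 9 were higher (22.4% of all such genes) and among shorter ones 19 of 25 (53.8%). The largest differences were at Adra1d (3059 bp in KD EtOH, 1078 bp in control EtOH), Adrb1 (3395 bp in KD EtOH, 2066 bp in control EtOH) and Chrm1 (2784 bp in KD EtOH, 1639 bp in control EtOH). Without ethanol, 2 of 34 receptors were higher in KD untreated, Htr2a and Adra1a (5.6% of all genes), and 12 lower (35.3%, against 10.6%). Among those 12 the largest decreases were at Chrm4 (1484 bp in KD untreated, 2255 bp in control untreated), Drd5 (196 bp in KD untreated, 852 bp in control untreated) and Htr1a (642 bp in KD untreated, 1193 bp in control untreated).

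H3K27ac differed less. With ethanol in the control vector, 4 of 38 receptors had at least 1.5-fold more (7.35% of all genes) and 8 fewer (7.04%), and the median log2 ratio was −0.06, against −0.03 over all genes. Chrm3 had the largest change there (871 bp in control EtOH, 1948 bp in control untreated). In the knockdown, 9 of 38 had more with ethanol (12.3% of all genes) and 2 fewer (3.07%), with a median of 0.13, against 0.12. Among the receptors past 1.5-fold, the largest increases in KD EtOH over KD untreated were 720 bp at Htr1a, 658 bp at Drd5 and 433 bp at Adora2a, while Adora1 had 1008 bp more without reaching 1.5-fold. Without ethanol, 10 of 39 were higher in KD untreated (12.1% of all genes) and 4 lower (3.67%), and of those past 1.5-fold Oprl1 led with 1303 bp more, Htr5b with 799 bp and Hrh3 with 753 bp. With ethanol, 17 of 39 were higher in KD EtOH than in control EtOH (21.2%) and 3 lower (2.02%), and of those past 1.5-fold Oprl1 led with 1104 bp more, Adra2c with 1095 bp and Chrm3 with 1021 bp, while Adora1 had 2135 bp more without reaching 1.5-fold. After division by list totals 9 were higher, against 12.6% of all genes. With lists of equal length 17 were higher (16.0% of all genes) and 7 lower (3.64%). Receptors were also split by mean H3K27ac length after the data were seen. Under 1000 bp, 7 of 21 receptors were higher with ethanol in the knockdown, against 30.5% of all such genes. For the knockdown over control vector it was 8 of 22 without ethanol (29.8%) and 11 of 22 with ethanol (42.4%). Among longer receptors, in the same order, 2 of 17 (3.92%), 2 of 17 (4.46%) and 6 of 17 (11.6%) were higher. With ethanol in the control vector, 7 of 21 shorter ones were lower (18.2%).

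Among receptors past 1.5-fold, Drd5 was among the 3 largest H3K9ac changes in bases in 3 of the 4 contrasts, and Htr1a, Chrm4 and Adra1d in 2 each. For H3K27ac, again among those past 1.5-fold, Chrm3 and Oprl1 were among the 3 largest in 2 contrasts each. In contrast, Adora1, Cnr1, Chrna7 and Chrnb2 had no H3K9ac change of 1.5-fold in any contrast.

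Fast transmitter receptors gave a scale for these shares. Of 26 glutamate receptor genes, H3K9ac end peaks were present at 26 in KD EtOH, 25 in KD untreated, 23 in control EtOH and 24 in control untreated, and of 24 GABA and glycine receptor genes at 15 in KD EtOH and 14 in each other group. With ethanol in the control vector, H3K9ac was at least 1.5-fold lower at 11 of 24 covered glutamate receptor genes (median log2 ratio −0.41) and 6 of 14 GABA and glycine receptor genes (median −0.40). Among the neuromodulator receptors it was 24 of 34 (median −0.64). These lists were neither matched for covered length nor tested against each other.

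Genes that act downstream of the receptors lay closer to the genome-wide share of 30.1% lower in H3K9ac with ethanol in the control vector. That share depends on covered length, as 19.6% of all genes with a mean of at least 1000 bp were lower and 50.4% of shorter ones. The gene lists here were not matched to the receptors for covered length. Of the covered G protein subunits, arrestins, regulators of G protein signalling and receptor kinases, 11 of 28 were lower and 0 higher, including Rgs4 (324 bp in control EtOH, 1441 bp in control untreated), a brake on Gi/o and Gq signalling, and Gng7 (394 bp in control EtOH, 1401 bp in control untreated). Of the effectors, 6 of 22 were lower, including Pde10a (920 bp in control EtOH, 2438 bp in control untreated), which breaks down cyclic nucleotides, and Adcy8 (1303 bp in control EtOH, 2597 bp in control untreated), an adenylyl cyclase. Among genes of transmitter synthesis and transport 7 of 12 were lower and 1 higher, and among those of breakdown 2 of 9. With ethanol, the knockdown had at least 1.5-fold more H3K9ac at 10 of 28 genes of the G protein list, 9 of 22 effectors, 9 of 13 synthesis and transport genes and 3 of 9 breakdown genes.

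The tissue label was checked against marker genes. Of 16 markers of hippocampal pyramidal and granule cells, all had H3K27ac end peaks in every list and 15 or 16 had H3K9ac. Markers of cells that make the ligands were sparse. Of 14 markers of monoamine neurons of midbrain and hindbrain, 2 to 5 had an end peak per list, and Th, Slc6a3, Slc6a2, Tph2 and Slc18a2 were among those with none. Dbh, the enzyme that makes noradrenaline, had no H3K9ac but H3K27ac over 3087 bp in KD EtOH, 3316 bp in KD untreated, 1742 bp in control EtOH and 2709 bp in control untreated. Ddc had 139 to 174 bp of H3K9ac in all 4 lists, and the serotonin transporter gene Slc6a4 had 95 to 607 bp of H3K27ac in all 4. Of 7 cholinergic neuron markers 0 to 2 had one, and Chat, Slc18a3, Slc5a7, Lhx8 and Isl1 had none. Markers of interneurons and microglia, cells of the hippocampus itself, were sparse as well. H3K9ac end peaks were at 4 or 5 of 16 inhibitory neuron markers and 1 to 3 of 11 microglia and macrophage markers. For H3K27ac the counts were 5 to 9 and 3 to 5. Slc32a1, Sst, Vip, Cx3cr1, Tmem119 and C1qa had no end peak in any list. A missing peak therefore does not show that a cell type was missing. Striatal markers had H3K9ac at 9 of 12 genes in KD EtOH, 7 in KD untreated, 6 in control EtOH and 7 in control untreated, thalamic and habenular markers at 4 to 7 of 13, and choroid plexus markers at 1 or 2 of 9. H3K27ac end peaks were at 9 of 12 striatal markers in every list, against 63.9% to 66.8% of all genes. They were also at 7 or 8 of 13 thalamic and habenular markers, 3 or 4 of 9 choroid plexus markers and 7 to 11 of 24 genes of other tissues. Many marker lists moved in H3K9ac along with the receptors. With ethanol in the control vector, at least 1.5-fold fewer bases were found at 10 of 16 covered hippocampal markers (median log2 ratio −0.79), 6 of 8 astrocyte markers (−1.13) and 8 of 10 markers of the oligodendrocyte lineage (−0.83). The same held for 5 of 8 covered genes of other tissues (−0.79) and 4 of 8 covered striatal markers (−0.55), against 30.1% of all genes. On the striatal list, 3 of the 12 genes are receptors described here. Inhibitory neuron markers were lower at 1 of 4 (−0.15) and housekeeping genes at 4 of 19 (−0.44), both below that share. Of 3 microglial markers, 2 were lower and 1 higher, with a median of 0.85 over markers covered in both lists. In KD EtOH, bases were at least 1.5-fold more than in control EtOH at 14 of 16 hippocampal markers (median log2 ratio 0.82), 6 of 8 astrocyte markers (1.27), 5 of 9 oligodendrocyte lineage markers (0.59) and 4 of 8 genes of other tissues (0.44). The part of these cell types in the receptors' values was not tested.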

How the data were processed

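Peaks were called by the authors for ChIP against input at a false discovery rate of 0.001, per the labels, and each deposited list stands for the 3 libraries of a group. The way of pooling them was not stated. Tools listed in the submitters' processing notes, with no roles, are MACS2, STAR 2.5.2a, bedtools and bcl2fastq, and the build is GRCm38 (mm10). Scores in the deposited lists behave like −log10 q-values, as none lies below 3.0, and served for ranking and filtering within each list. Gene coordinates came from a RefSeq table of GRCm38.p6 (21887 protein-coding genes on assembled chromosomes), and annotated starts from its promoter table.

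Covered bases were counted with Python 3.11.15, pandas 2.3.3 and numpy 2.4.6, within 2 kb of either gene end (both windows merge in short genes) and in the rest of the gene. Bases under peaks measure peak number and width, not height. A receptor was called higher or lower at 1.5-fold, or when covered in 1 list only. The counting was tested on simulated peaks. Receptors with end peaks in all 8 lists, in 1 or 2 lists or only in the gene body, and the 3 largest called changes per contrast, were named with all values, and a few others were named for context. The receptors and the lists of other genes were chosen with earlier results of these data known. Alternatives varied the window, score minimum, list length, overlap, fold and scaling. Inputs entered only through the authors' calls.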

Additional observations from a re-analysis of the deposited data

Results flagged for a closer look

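For 9 receptors, H3K9ac-covered bases at the gene ends were higher with ethanol in the knockdown and lower with ethanol in the control vector, each by at least 1.5-fold. The change in the knockdown minus the change in the control vector was 1800 bp at Chrm4, 1683 bp at Drd5, 1512 bp at Htr1a, 981 bp at Oprd1, 962 bp at Adora2a, 895 bp at Chrm3, 749 bp at Oprl1, 509 bp at Hrh1 and 296 bp at Hrh2. For H3K27ac the same pattern gave 552 bp at Chrna3 and 552 bp at Chrnb4, which are the same peaks. Htr1b and Chrm2 ran the other way for H3K27ac, with −659 bp and −583 bp, as ethanol went with fewer bases in the knockdown and more in the control vector. These differences were picked out because the direction was opposite in the vectors, and none was tested, since each group has 1 list.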

How the results depend on the processing

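Of 186 recomputed counts, 171 were within 1.5 times the reported one and none changed its prevailing direction. At a fold of 2, H3K9ac called 8 receptors for the knockdown without ethanol (14 at 1.5-fold), and H3K27ac called 6 for ethanol in the control vector (12), 4 for ethanol in the knockdown (11) and 8 for the knockdown with ethanol (20). For ethanol in the knockdown, H3K27ac called 7 with 1 kb windows and 7 at gene starts only, and for the knockdown without ethanol 8 at gene starts only (14). Division by list totals left 12 H3K27ac calls for the knockdown with ethanol (20). The 9 receptors with opposite H3K9ac changes became 5 at a fold of 2 and 5 after division by list totals, and the 2 with H3K27ac became 1 with 1 kb windows, 1 at a score of at least 5, 1 with lists of equal length and 1 at gene starts only. The causes were not tested. Of the 33 receptors with no other protein-coding gene near their ends, 25 had H3K27ac in KD EtOH (38 of 52 in all). The settings for opposite changes, neighbouring genes and covered length were added after seeing the data. Leaving out a replicate was not possible with pooled lists. No paired analysis was possible because each group has 1 pooled list. Depth is unknown, and peaks near the calling threshold limit what an absent peak can show.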
